A study of Homo sapiens with 4 samples.

Results

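Peaks at 3 human genes for short structural RNAs, RN7SK, RN7SL1 and RN7SL2, were examined in 2 chromatin immunoprecipitation (ChIP-seq) peak lists. A peak belonged to a gene when its summit, the base of highest coverage, lay in the gene or within 10 kb of it on hg38. Of the 15993 peaks called after treatment of the cells with the cytokine TGF-β1, 3 met this rule, 1 for each gene, and of the 5307 peaks called in control cells 0 did. The genes were chosen because peaks had been seen there, so the presence of the peaks is a description and was not tested.

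The 4 libraries were a pair of ChIP and input (chromatin sequenced without the antibody step) for control cells and another pair for cells given TGF-β1 at 20 ng/mL for 2 h. The labels call the cells HSC, stem cells and progenitors, grown in serum-containing medium. The protocol text of all 4 libraries also lists GDF11 (100 ng/mL) as a treatment. Whether any of these cells received it is not stated there, and neither is the antibody. With 1 library per group there was no replicate check, and every difference below is between 2 libraries. The cell identity could not be checked from peak lists.

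RN7SK encodes 7SK RNA, the scaffold of a nuclear particle that holds the kinase P-TEFb inactive and so restrains the release of paused RNA polymerase II. RN7SL1 and RN7SL2 encode 7SL RNA, the scaffold of the signal recognition particle, which directs ribosomes making secreted and membrane proteins to the endoplasmic reticulum. RNA polymerase III transcribes all of these genes, and both RNAs are very abundant in most cells. The 7SK promoter lies upstream of the gene, whereas 7SL genes also use elements inside the transcribed part. The genome carries many pseudogene copies of both, and Alu repeats descend from 7SL. A short read from one 7SL copy can fit another, so the peaks in RN7SL1 and RN7SL2 are uncertain as to copy.

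Without duplicates, 36280696 tags remained for control ChIP and 45984282 for TGF-β1 ChIP. Tags measured 60 bp in the former and 43 bp in the latter, and the effects of tag length and of treatment on placement in repeated sequence cannot be told apart here. Median pileup, the number of extended ChIP tags over the summit, was 23 in the control list and 19 in the TGF-β1 list. Median peak length was 177 bp and 159 bp. Fold enrichment, pileup and −log10 q of each peak are the authors' values.

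All 3 TGF-β1 summits lay inside the gene bodies. Over all 59679 genes of the reference table, 7.96% had a TGF-β1 summit in the body and 2.69% a control summit. Among the 10670 genes of at most 500 bp, the size class of the 3 genes, the shares were 0.0469% and 0%. Within 10 kb of a gene the shares over all genes were 14.1% and 4.65%, and over the short genes 7.33% and 2.10%. Since the genes were chosen on these peaks, nothing is read from the contrast between 3 of 3 and these shares.

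RN7SK (chromosome 6, 52995620 to 52995951, 332 bp) held a TGF-β1 peak from 52995650 to 52995840. Its pileup was 55, its fold 4.74 and its −log10 q 16.4. The peak ran from base 31 to base 221 of the gene, counted from the end with the lower coordinate, and its summit was base 155. It covered 57.5% of the gene and stopped 30 bp and 111 bp short of the gene's ends, so that no called base lay outside the transcribed part. The nearest protein-coding genes, GSTA4, which encodes a glutathione transferase, at 0.336 kb, and CILK1, which encodes a ciliary kinase, at 5.35 kb, held no summit of either list.

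RN7SK and GSTA4 lie close together, and the upstream part of the GSTA4 promoter is the stretch nearest to the 3 genes in the RefSeq promoter sequences used here (GRCh38.p14), which have no entry for the 3 genes themselves. It is shown because it fills most of the gap between the 2 genes and marks where the TGF-β1 peak was not called. The 250 bases span chr6:52995285-52995534 and are printed on the minus strand, so the first printed base is the one nearest to RN7SK. A gap of 85 bp separates the window from RN7SK and one of 115 bp from its peak. The window contained 0 summits of either list. Capitals mark the matches to CACCC on either strand.
GSTA4 upstream: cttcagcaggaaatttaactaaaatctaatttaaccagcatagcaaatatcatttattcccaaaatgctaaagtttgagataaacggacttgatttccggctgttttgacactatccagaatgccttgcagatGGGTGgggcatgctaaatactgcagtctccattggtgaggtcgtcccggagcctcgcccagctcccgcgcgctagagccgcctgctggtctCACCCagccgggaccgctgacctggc
The motif CACCC was found 2 times, at base 134 on the opposite strand and at base 225 on the printed strand, and 54.7% of the 35116 promoter stretches of this length hold it on at least 1 strand. CCAAT was found 1 time, on the opposite strand (32.0% of promoters), and overlaps neither CACCC match. ATGCAAAT (1.63% of promoters) and TATAAA (10.7%) had no match on either strand in this window. The 85 bp between the window and RN7SK were not searched, and the gene table used gives no strand. Whether the window holds part of the RN7SK promoter was not tested. These matches describe the letters only.

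RN7SL1 (chromosome 14, 49586580 to 49586878, 299 bp) held a TGF-β1 peak from 49586618 to 49586763. Its pileup was 46, its fold 3.67 and its −log10 q 9.67, the lowest of the 3 genes in each measure. The peak ran from base 39 to base 184, covered 48.8% of the gene and had its summit at base 156. RN7SL1 lies within the annotated span of RPS29, which encodes a ribosomal protein of the small subunit, and the peak was the only summit of either list in that span.

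RN7SL2 (chromosome 14, 49862551 to 49862849, 299 bp) held a TGF-β1 peak from 49862593 to 49862817. Its pileup was 56, its fold 5.79 and its −log10 q 20.8, the highest of the 3 genes. The peak ran from base 43 to base 267 and covered 75.3% of the gene, the largest part of the 3. Its summit was base 140 from the lower end and base 160 from the upper end. RN7SL2 lies within the uncharacterised long non-coding RNA gene LOC105378179, 276 kb from RN7SL1.

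In all 3 genes the summit was close to the middle. Summit minus gene middle, negative towards the lower coordinate, was -11.5 bp in RN7SK, 6 bp in RN7SL1 and -10 bp in RN7SL2. The 3 peaks began 30 to 42 bp inside the lower end and ended 32 to 115 bp before the upper end. The shortest peak in the TGF-β1 list was 136 bp, the fragment length used by the caller.

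**Figure D1:**
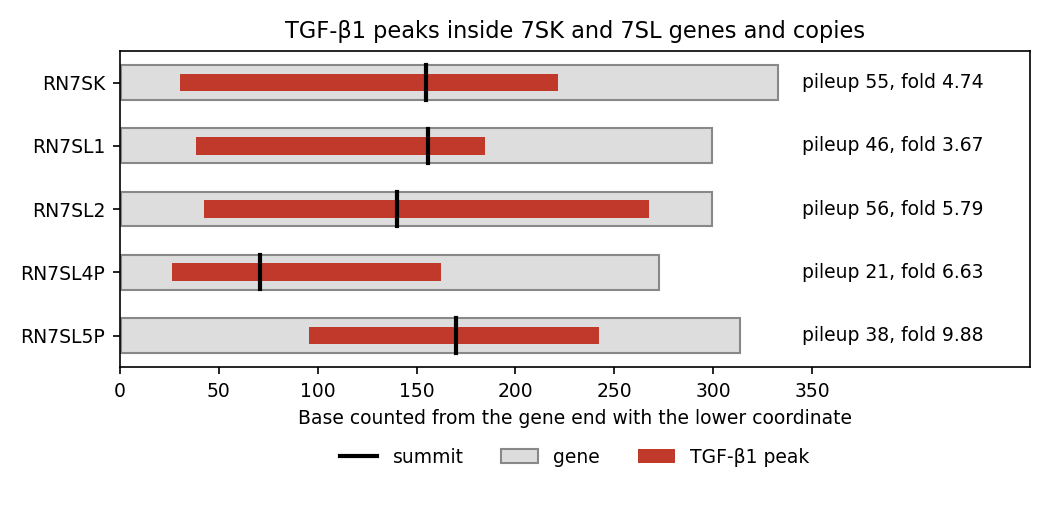
Bases of each gene from its lower-coordinate end (x axis), with the gene in grey, the TGF-β1 peak in red and the summit as a black line, for the 3 genes and 2 pseudogene copies. All 5 peaks lie inside their gene, and the summits of RN7SK, RN7SL1 and RN7SL2 lie at bases 155, 156 and 140.

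The input library was also above its genome-wide level at these summits. The local background, computed from the deposited pileup and fold, was 10.8 tags at RN7SK, 11.8 at RN7SL1 and 8.84 at RN7SL2, against a genome-wide value of 2.32. These are 4.67, 5.09 and 3.82 times the genome-wide value, where the median TGF-β1 peak had 2.12 times. Divided by the ratio of ChIP to input tags, 0.983, they were whole numbers of input tags within 0.01, namely 11, 12 and 9 tags over the summit itself. Whole numbers are what a background taken from a window of the fragment length at the summit gives, and 69.0% of TGF-β1 peaks had one.

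The ChIP and input tags at each summit can thus be set side by side. RN7SK had 55 ChIP tags (exact Poisson 95% interval 41.4 to 71.6) and 11 input tags (5.49 to 19.7). RN7SL1 had 46 (33.7 to 61.4) and 12 (6.20 to 21.0). RN7SL2 had 56 (42.3 to 72.7) and 9 (4.12 to 17.1). In each gene the 2 intervals did not overlap. The peaks had been called for ChIP coverage above this same background, so the lack of overlap is no separate evidence of enrichment. Scaled for library size, the ratio of ChIP to input was 5.09 (exact 95% interval 2.63 to 10.8) at RN7SK, 3.90 (2.03 to 8.09) at RN7SL1 and 6.33 (3.11 to 14.6) at RN7SL2. The intervals of the 3 ratios overlapped, so the order of the genes was not resolved at this depth. They cover counting error only, and the summits were chosen by the caller for their height.

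**Figure D2:**
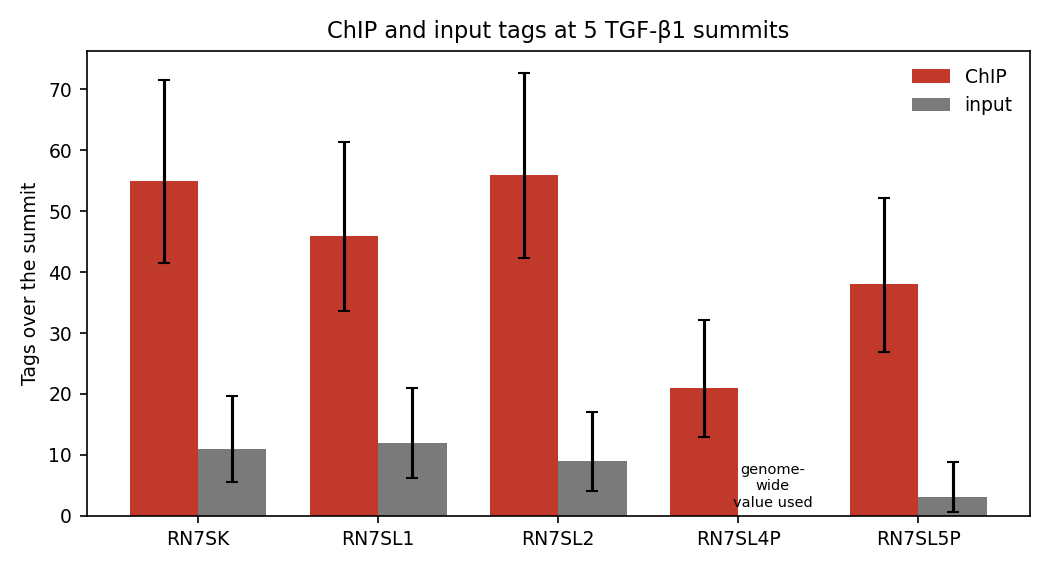
ChIP tags (red) and input tags (grey) over the summit of the 5 TGF-β1 peaks in 7SK and 7SL genes and copies, in tags, with exact Poisson 95% intervals as bars. ChIP tags number 46 to 56 in the 3 genes, against 9 to 12 input tags, and RN7SL4P has no input bar because its background was the genome-wide value.

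Among all TGF-β1 peaks, the pileup of the 3 peaks was high but shared with many others. At or above the pileup of 55 at RN7SK lay 12.9% of the list, at or above the 46 of RN7SL1 14.8%, and at or above the 56 of RN7SL2 12.6%. Most of those others lay in bins of 1 Mb crowded with at least 20 peaks of both lists. The bins of RN7SK and of the 2 RN7SL genes held 5 and 7 peaks. Outside the crowded bins the shares were 0.590%, 0.775% and 0.573% of 11351 peaks, which placed RN7SK 67th, RN7SL1 88th and RN7SL2 65th by pileup, ties counted above.

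By fold the 3 genes were further apart. RN7SL2 was in the top 1.36% of the TGF-β1 list, RN7SK in the top 9.71% and RN7SL1 in the top 40.7%, close to the list median of 3.46. By length, 10.4% of the list was at or above the 225 bp of RN7SL2, 23.5% at or above the 191 bp of RN7SK and 69.9% at or above the 146 bp of RN7SL1. The RN7SL1 peak was thus shorter than the median peak while its pileup was 46 against a median of 19.

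Against the 1084 TGF-β1 peaks with a local background of 8 to 13 tags, which had a median pileup of 31 and a median fold of 2.84, all 3 were above the median in both. Of these peaks, 0.461% had a fold at or above that of RN7SL2, 1.94% at or above that of RN7SK and 16.4% at or above that of RN7SL1. This range of background was chosen after the values were seen. Of the 1084 peaks, 65.4% lay in crowded bins.

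**Figure D3:**
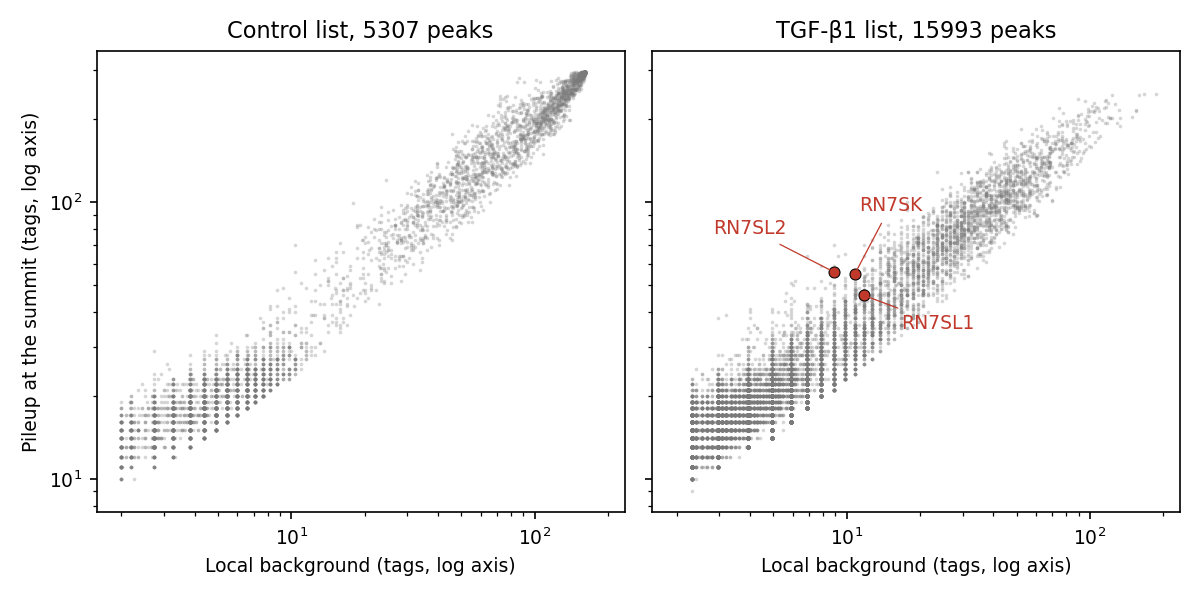
Pileup at the summit against local background, both in tags on log axes, for each of the 5307 control and 15993 TGF-β1 peaks (grey points), with the peaks in RN7SK, RN7SL1 and RN7SL2 in red. RN7SL2 and RN7SK lie near the upper edge of the cloud at their background, RN7SL1 lies inside it, and the control panel has no point for these genes.

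In the control list the nearest summits were 335 kb from RN7SK (pileup 25, fold 4.40), 472 kb from RN7SL1 and 196 kb from RN7SL2, the last 2 being 1 peak with a pileup of 19 and a fold of 2.65. A peak list does not give the coverage where no peak was called, so the control level at the 3 genes is not known. At a local background of 8 to 13 tags the control list had 253 peaks with pileups from 21 to 70. If the control input had stood at the same multiples of its genome-wide value as the TGF-β1 input, pileups of 23, 24 and 20 would have matched the weakest p-value in the control list at RN7SK, RN7SL1 and RN7SL2. ChIP coverage at the multiples seen in the TGF-β1 library would have been 47.2, 39.5 and 48.1. This calculation rests on an input level that was not measured in the control list. It also takes its multiples from the peaks for which the genes were chosen, and leaves out the difference in tag length. No difference between the conditions is read from it.

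No other TGF-β1 summit lay within 10 kb of these genes. The usual distance between peaks of the list was not computed, so the distances below are a description only. Beyond the 10 kb limit, the next TGF-β1 summits were 185 kb from RN7SK, with a pileup of 23 and a fold of 2.71, and 77.4 kb from RN7SL1, with a pileup of 18 and a fold of 3.21. The same peak was the next for RN7SL2, at 198 kb. On the upper side of RN7SL2 the next was 261 kb away, with a pileup of 19. Apart from each other, the peaks of RN7SL1 and RN7SL2 had no neighbour within 300 kb with a pileup over 19, and that of RN7SK none over 23.

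**Figure D4:**
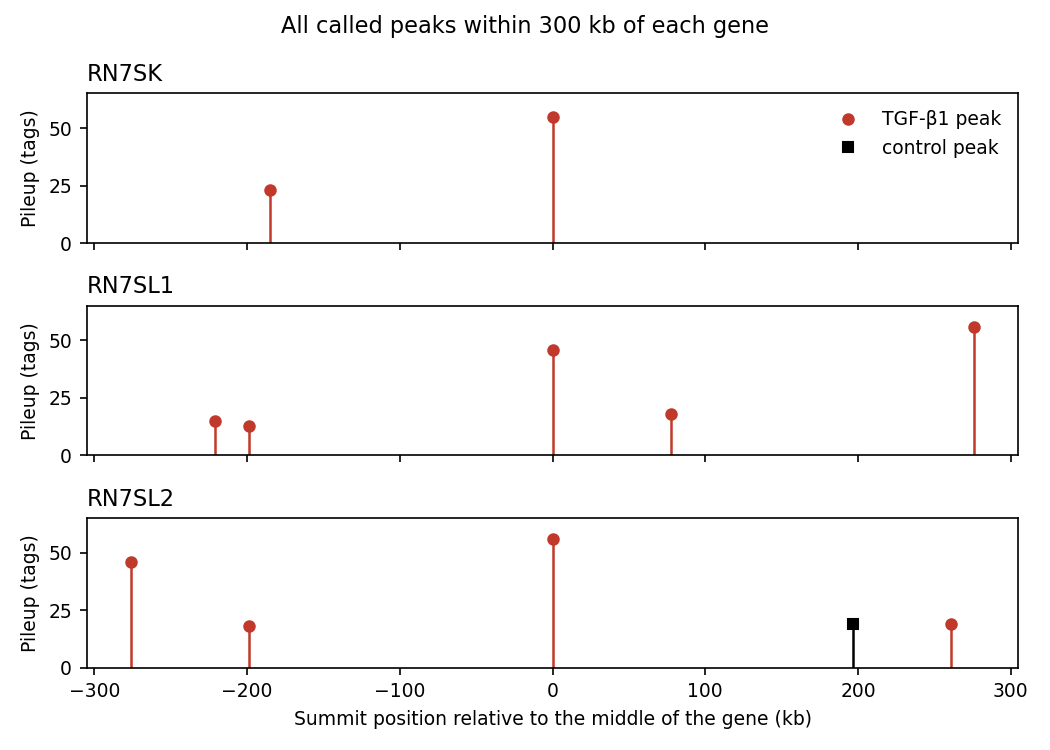
Every called peak within 300 kb of the middle of RN7SK, RN7SL1 and RN7SL2, by distance in kb (x axis) and pileup in tags (y axis), TGF-β1 in red and control in black. The peaks at 0 kb reach 46 to 56 tags, and the others reach at most 23, except that RN7SL1 and RN7SL2 appear in each other's panel at 276 kb.

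RN7SL3, the third 7SL gene (chromosome 14, 49853616 to 49853914, 299 bp), lies 8.64 kb from RN7SL2 and held no summit of either list. It counts as having a TGF-β1 summit within 10 kb, but that summit is the one in RN7SL2.

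Of the 684 7SL pseudogenes, 2 (0.292%) held a TGF-β1 summit and 0 a control summit, beside 0.0469% and 0% of all genes of at most 500 bp, a share that counts these 2 copies as well. RN7SL5P (chromosome 9, 9441998 to 9442310), within PTPRD, a receptor phosphatase gene, held the peak of highest fold in the whole TGF-β1 list. It ran from 9442093 to 9442239, bases 96 to 242 of the 313 bp copy, with its summit at base 170. The pileup was 38, the fold 9.88 and −log10 q 23.3. RN7SL4P (chromosome 3, 15738515 to 15738786), within ANKRD28, a regulatory phosphatase subunit gene, held a peak from 15738541 to 15738676. Its pileup was 21, its −log10 q 9.62 and its fold 6.63, which was 43rd in the list. The summit of RN7SL4P was base 71 of 272.

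These 2 copies differed from the 3 genes in their background. At RN7SL5P it was 2.95 tags, or 3 input tags, and at RN7SL4P the genome-wide 2.32, so their folds were higher on lower pileups. Whether reads of RN7SL1 or RN7SL2 were placed in these copies was not tested.

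Together these made up the whole count of short genes. Of the 10670 genes of at most 500 bp, 5 held a TGF-β1 summit, RN7SK, RN7SL1, RN7SL2, RN7SL4P and RN7SL5P, and 0 held a control summit. Each of the 5 peaks lay within the ends of its gene. Among the 4323 short genes that are not pseudogenes, RN7SK, RN7SL1 and RN7SL2 were the only ones with a summit in the body in the TGF-β1 list.

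Of the 293 7SK pseudogenes, 0 held a summit of either list, near the same background of 0.0469% and 0%. The 5 short genes named above make up that 0.0469%. Within 10 kb lay TGF-β1 summits for 19 and control summits for 7, with pileups of 14 to 22 and 13 to 32. These summits lie outside the copies, so their pileups are not set against the 55 of RN7SK. The highest folds were 6.46 near RN7SKP257, 5.65 near RN7SKP222 and 5.32 near RN7SKP262 among TGF-β1 peaks. Among control peaks they were 6.0 near RN7SKP58, 4.68 near RN7SKP75 and 3.39 near RN7SKP94. For 7SL pseudogenes the counts within 10 kb were 56 and 16. The third highest fold of the TGF-β1 list there was 5.73 near RN7SL254P, and the highest of the control list were 6.71 near RN7SL763P and 4.56 near both RN7SL96P and RN7SL849P. As shares, 6.48% and 8.19% of the 2 families had a TGF-β1 summit within 10 kb, near the 7.33% of all short genes, and 2.39% and 2.34% a control summit, near 2.10%.

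Other genes transcribed by RNA polymerase III were counted in the same way. The list of 478 joined 443 transfer RNA genes with 35 genes for other short RNAs, among them RMRP and RPPH1, which encode the RNA parts of processing ribonucleases, the Y RNA and vault RNA genes and RN7SL3. Neither list had a summit in the body of any, 0 of 478 in each. Of all genes of at most 500 bp, 0.0469% and 0% had a TGF-β1 or control summit, so a count of 0 is near the background. The 0.0469% is made up wholly of the 3 chosen genes and 2 7SL pseudogenes. Within 10 kb, 33 (6.90%) had a TGF-β1 summit and 12 (2.51%) a control summit, near the 7.33% and 2.10% of all short genes. Within 1 kb the nearest TGF-β1 summits were 656 bp from the vault RNA gene VTRNA1-3 (pileup 23, fold 2.44) and 999 bp from the transfer RNA gene TRH-GTG1-5 (pileup 20, fold 3.55). The genes for small RNAs transcribed by RNA polymerase II, most of them small nuclear RNAs of the spliceosome, had a summit in 0 of 46 bodies in each list. That count is also near the same background. Of 7 genes of abundant nuclear RNAs, among them MALAT1 and NEAT1, 0 had a summit in the body or within 10 kb in either list. Over all genes the TGF-β1 and control shares were 7.96% and 2.69% in the body and 14.1% and 4.65% within 10 kb. With 7 genes, a count of 0 is not a result about them.

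Of 15 genes for protein partners of 7SK RNA and of P-TEFb, 1 had a TGF-β1 summit in its body, CCNT2, which encodes a cyclin of P-TEFb (chromosome 2, 134924522 to 134924717, pileup 21, fold 3.72), and 0 had a control summit. HEXIM1, which encodes the inhibitor of P-TEFb in the particle, LARP7 and MEPCE, which encode its stabilising proteins, and CDK9, which encodes the kinase, had none. The share of 1 in 15, 6.67%, was near the 7.96% of all genes with a TGF-β1 summit, and 0 of 15 stands beside 2.69% of all genes with a control summit, so neither count is a result about these genes.

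Of the 8 genes for proteins of the signal recognition particle and its receptor, 1 had a summit in each list. That is 12.5% in each, where 7.96% of all genes had a TGF-β1 summit and 2.69% a control summit, and with 8 genes a single gene makes up the whole share. SRP19, which encodes a protein needed to assemble the particle, had a TGF-β1 peak (chromosome 5, 112881813 to 112881948) with a pileup of 19 and a fold of 3.38. SRP72, which encodes a protein of the larger particle domain, had a control peak (chromosome 4, 56472312 to 56472459) with a pileup of 21 and a fold of 4.10. SRP54, the subunit that binds signal peptides, had none.

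Among 28 genes for RNA polymerase III and its factors, 5 had a TGF-β1 summit and 0 a control summit. They were POLR3B, a catalytic subunit gene (2 peaks, folds of 2.54 and 3.25), the initiation factor gene BDP1 (3.34), GTF3C3, which encodes part of the factor that recognises internal promoters (3.38), the polymerase subunit gene CRCP (2.80) and SNAPC1, which encodes part of the complex that binds small nuclear RNA promoters (2.79). Their pileups were 15 to 22. Their bodies are longer than those of the 3 RNA genes, and gene length, which gives more room for a summit, was not matched when their 17.9% is set beside the 7.96% of all genes. The control count of 0 of 28 stands beside 2.69% of all genes with a control summit, in the shorter list. The contrast of 5 and 0 is therefore not read as a difference between conditions.

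The nearest protein-coding genes on either side of the 3 genes numbered 18, RPS29 not counted. Of these, 3 (16.7%) had a TGF-β1 summit in the body and 1 (5.56%) a control summit. Over all genes the shares were 7.96% and 2.69%. Gene length was not matched and the TGF-β1 list is the longer, so the counts are not read as a result about the neighbours. MDGA2 and SOS2 were among the genes with summits. MDGA2, which encodes a cell-surface protein, held 3 TGF-β1 peaks, the highest with a fold of 3.85, and 1 control peak with a fold of 4.10. SOS2, which encodes an activator of Ras, held 2 TGF-β1 peaks, with folds of 2.90 and 3.15, and no control peak. MDGA2 lies 1911 kb from RN7SL1 and SOS2 254 kb from RN7SL2. Their TGF-β1 pileups did not exceed 25.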

How the data were processed

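The data were 2 peak tables, 1 per condition, each called from 1 ChIP library against its own input. Per the submitters' processing notes, the authors used hg38, Bowtie2 and MACS2 2.1.0. The file headers name version 2.2.7.1, a q-value limit of 0.05, and 1 tag kept per position. No source states how reads with several matches were treated.

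Pileup, as deposited, is a coverage signal counted in extended ChIP tags at the summit. Fold, as deposited, is a ratio in which 1 is added to pileup and to local background. The deposited −log10 p and −log10 q values come from a Poisson test against that background. The local background was computed from pileup and fold, and gave back every deposited −log10 p within 0.00021.

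Genes were the 59679 entries on numbered chromosomes, X and Y of a RefSeq table (GRCh38.p14), which gives no strand. Exons were not analysed. No test between conditions was made. The 3 genes, the 9 gene lists and the motifs were chosen with earlier results of these data known. The text names the 3 genes, every listed gene with a summit in its body (1 is not reported here), the 3 pseudogenes of highest fold per list, and short non-coding genes with a summit. Other genes in the text were named after their values were seen. Intervals are 95% and cover counting error only. Scripts were tested on simulated data and used Python 3.11.15, pandas 2.3.3 and SciPy 1.17.1.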

Additional observations from a re-analysis of the deposited data

How the results depend on the processing

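With 1 library per condition no replicate could be left out, and the lists hold called peaks only. No paired analysis was possible because each condition had 1 ChIP library and the result comes from no test. The count of 3 genes with a TGF-β1 summit held in the body, within 1 kb and for any part of a peak. Within 100 kb the TGF-β1 peaks numbered 4, with the summit 77.4 kb from RN7SL1 added. The count of genes was 2, without RN7SL1, at a −log10 q of at least 10. It was also 2 when the TGF-β1 list was shortened by fold to the length of the control list. The control count was 0 throughout. Without crowded bins, the percent of the list at or above RN7SK was 0.590 by pileup, 11.7 by fold and 22.7 by length. For RN7SL1 it was 0.775 by pileup and 47.6 by fold, and for RN7SL2 0.573 by pileup and 9.49 by length. Among peaks of low local background it was 0.0682, 11.6 and 22.9 for RN7SK and 0.0606, 1.64 and 9.60 for RN7SL2, by pileup, fold and length in turn, and RN7SL1 lay above that limit. Among peaks of 8 to 13 background tags, chosen after seeing the data, it was 1.94, 1.94 and 25.6 for RN7SK, 9.04, 16.4 and 71.8 for RN7SL1, and 1.66, 0.461 and 11.9 for RN7SL2. Leaving out unplaced sequences moved the percents little. By pileup they were then 12.6 for RN7SK, 14.5 for RN7SL1 and 12.4 for RN7SL2, beside 12.9, 14.8 and 12.6 in the whole list. With summits within 1 kb, a control summit was counted for 3 of 478 other RNA polymerase III RNA genes, 1 of 293 7SK pseudogenes and 2 of 684 7SL pseudogenes. A TGF-β1 summit was counted for 2 of 478 in the first list (0.418%) and 8 of 684 in the last (1.17%). The share of all short genes within 1 kb was not computed, so these counts are not read as results. Within 10 kb, control counts were 1 for 7SK proteins, 12 for other RNA polymerase III RNA genes, 1 for small nuclear RNA genes, 7 for 7SK pseudogenes and 16 for 7SL pseudogenes. The TGF-β1 counts were 33, 3, 19 and 56 for the last 4 lists. For protein-coding neighbours the TGF-β1 count was 7 of 18 (38.9%), beside 14.1% of all genes. GSTA4, CILK1 and NEMF were counted there only through the peaks in RN7SK and RN7SL2. A wider window holds more bases by construction.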
